A study of Mus musculus with 8 samples.

Results

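Ketone body metabolism was followed in mouse liver through 5 genes, *Acat1*, *Bdh1*, *Slc16a1*, *Bdh2* and *Oxct1*. They were chosen by name, with earlier results of these data known, among the 38283 genes of the deposited expression table. All 5 had a row and all 5 passed the filter for testing (FPKM above 1 in at least 1 library), which left 11634 genes. FPKM is the number of fragments divided by the length of the transcript and by the size of the library, so that levels can be compared between genes per length. Messenger RNA was sequenced from whole livers of C57BL/6 mice in which both *Rora* alleles carry loxP sites. The RORα f/f groups carry these alleles alone, and the RORα LKO groups (Alb-cre;RORa f/f in the labels) also carry Cre under the albumin promoter, which is active in hepatocytes. Male mice aged 8 weeks received a control diet (CD) or a high-fat diet (HFD) with 60% of its energy as fat for 10 weeks. Each of the 4 groups has 2 libraries, with RNA from the combined livers of 2 mice in each library. In pooled whole liver, fewer cells of a type and less RNA per cell cannot be told apart.

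The liver makes ketone bodies from the acetyl-CoA that mitochondrial fatty acid oxidation releases. ACAT1 joins acetyl-CoA units into acetoacetyl-CoA at the start of the pathway, and BDH1 reduces acetoacetate to beta-hydroxybutyrate at its end. Monocarboxylate transporters such as MCT1, the product of *Slc16a1*, carry ketone bodies across the plasma membrane. Muscle, heart and brain use them through OXCT1, an enzyme that hepatocytes are known to lack almost entirely. BDH2 is a short-chain dehydrogenase of the cytosol, described both as a second beta-hydroxybutyrate dehydrogenase and in the making of a mammalian siderophore. RORα, encoded by *Rora*, is a nuclear receptor that binds DNA at half-sites of the type AGGTCA and at the variant that starts with G. In its consensus element a short A/T-rich stretch lies before the half-site.

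*Rora* itself was read first, as the check of the labels. Its FPKM was 8.85 and 8.59 in the CD-fed f/f libraries, 7.96 and 8.18 in the CD-fed LKO libraries, 7.56 and 7.86 in the HFD-fed f/f libraries, and 7.30 and 8.02 in the HFD-fed LKO libraries. The genotypes were thus not separated on the HFD (log2 fold change 0.01 ± 0.072 SE, limma adjusted p = 0.974) and did not pass the test on the CD either (-0.10 ± 0.072 SE, limma adjusted p = 0.613). The value covers the whole gene while the deletion removes internal exons, so that it cannot check the label, and the libraries are called LKO-labelled and f/f-labelled from here on. Between 10587 and 10706 genes exceeded 1 FPKM in a library. Of 8 hepatocyte markers, *Ttr* and *Apoa1* stood above 3994 FPKM in every library. *Apoc3* ranged from 1560 to 2005 FPKM, *Fgb* from 1842 to 2817, *Cps1* from 455 to 793 and *Tat* from 250 to 1036. However, *Alb* was listed at 0 in 4 libraries and at 29902 or more in the other 4, and *Serpina3k* was listed at 0 in 7 of 8. Both belong to the 36 genes that were above 1000 FPKM in one library and listed at 0 in another. No ketone body gene was listed at 0 in any library.

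The sequences before the start of transcription are shown because RORα is a DNA-binding factor and the genotype concerns it. RefSeq windows (GRCm38.p6) of 250 bases before the start were matched for 4 of the 5 genes, as 5 windows, since *Bdh1* has a pair of starts. The half-site AGGTCA, its variant spelled GGGTCA and the E-box spelled CACGTG were searched on both strands. The A/T-rich stretch before the half-site was not part of the search. GGGTCA lay 102 bases before the first start of *Bdh1* (plus strand), 204 bases before the start of *Slc16a1* (plus strand) and 145 bases before the start of *Oxct1* (minus strand, read as TGACCC on the plus strand). In *Slc16a1* it shares bases with a CACGTG that begins 200 bases before the start. These starts are those of RefSeq. They lie inside the gene as GENCODE draws it for *Bdh1* and *Oxct1*, and counted from the GENCODE starts printed with the genes below the matches lie 85 and 100 bases before. The matches are given in capitals below with 12 bases on each side, at chr16:31422183-31422212, chr3:104638448-104638481 and chr15:4026271-4026300, all on the plus strand.
Bdh1: ctgcttgccagaGGGTCAaattcacggtca
Slc16a1: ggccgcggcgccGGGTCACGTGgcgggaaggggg
Oxct1: gatctttatcagTGACCCtttgtacctgta

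The whole window of *Slc16a1*, which of the 5 genes had the lowest unadjusted p between the genotype labels on the HFD, is chr3:104638414-104638663 on the plus strand, with the overlapping half-site and E-box in capitals.
Slc16a1: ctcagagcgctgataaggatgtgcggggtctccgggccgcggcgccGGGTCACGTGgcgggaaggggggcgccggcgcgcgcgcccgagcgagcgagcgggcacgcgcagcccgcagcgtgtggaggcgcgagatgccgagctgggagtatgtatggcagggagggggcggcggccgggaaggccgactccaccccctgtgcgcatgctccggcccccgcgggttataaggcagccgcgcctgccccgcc

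Such matches are common. Of all 32851 windows of this length, 23.8% held the half-site in either spelling, 11.6% held the spelling GGGTCA and 6.02% held the E-box. None of these motifs was found in the second window of *Bdh1* or in the window of *Bdh2*. The matches describe letters and not binding sites, and RORα binding was not analysed here.

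The levels of the 5 genes spanned a wide range. *Acat1* and *Bdh1* were abundant, with a mean of 152 and 122 FPKM over the 8 libraries, above 95.8% and 94.7% of the genes tested. *Slc16a1* and *Bdh2* were close to the middle, at 10.5 and 8.50 FPKM, and *Oxct1* was near the filter at 0.923 FPKM, above 6.41% of the genes tested. The order of the means was *Acat1*, *Bdh1*, *Slc16a1*, *Bdh2* and *Oxct1*. *Acat1* exceeded *Bdh1* in 7 of 8 libraries and *Slc16a1* exceeded *Bdh2* in 5 of 8, so that this last order does not hold beyond the spread. Between *Bdh1* and *Oxct1* the ratio of the means was 133.

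**Figure D1:**
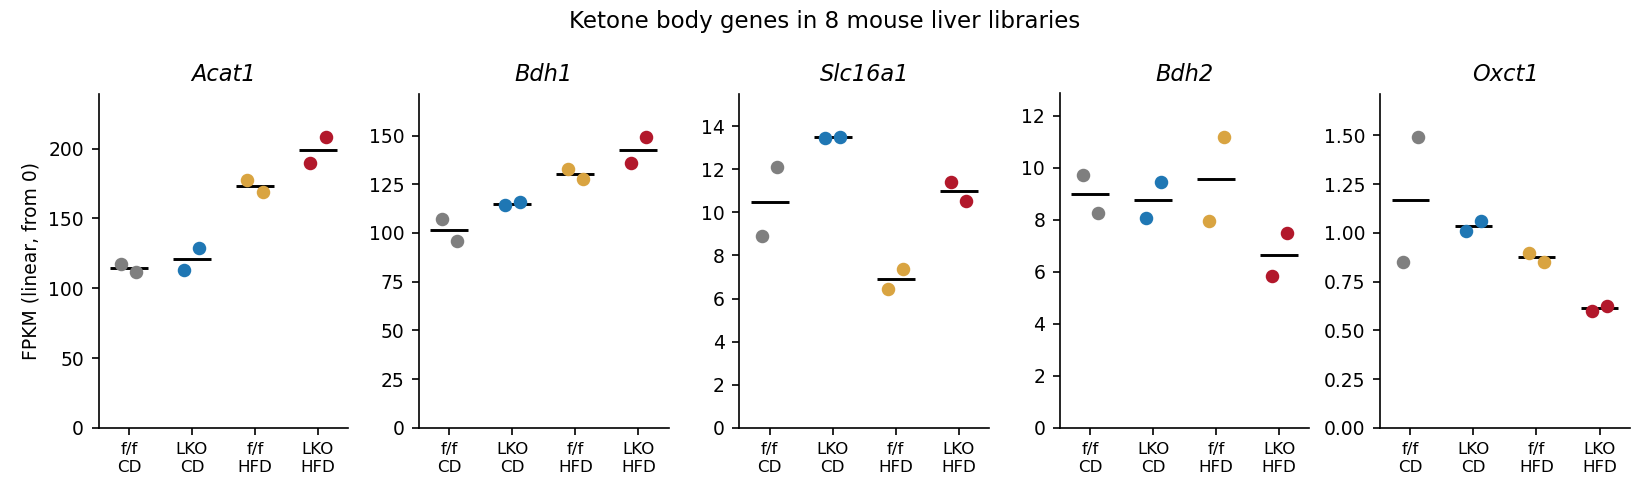
FPKM of the 5 ketone body genes in each of the 8 libraries (points) with the group mean (bar), by genotype label and diet, on linear axes from 0 that differ between genes. *Acat1* and *Bdh1* are higher in all 4 HFD libraries than in any CD library, and *Slc16a1* is lowest in the 2 HFD-fed f/f libraries.

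The first question was what the HFD did to the enzymes that make ketone bodies. *Acat1* (ENSMUSG00000032047; chromosome 9, 53580522 to 53610382, minus strand, GRCm38, 12 exons), the mitochondrial thiolase of the first step, stood at 117 and 112 FPKM in the CD-fed f/f libraries and at 178 and 169 in the HFD-fed f/f libraries. In the LKO-labelled libraries it stood at 113 and 129 on the CD and at 190 and 208 on the HFD. All 4 HFD libraries lay above all 4 CD libraries. Averaged over the genotypes, *Acat1* rose 1.64-fold on the HFD (log2 fold change 0.71 ± 0.058 SE, 95% interval 0.57 to 0.85, limma adjusted p = 0.0033), with the 22nd lowest p of the 11634 genes tested. It rose by 0.62 on the log2 scale in the f/f-labelled mice (limma adjusted p = 0.037) and by 0.80 in the LKO-labelled mice (limma adjusted p = 0.016). The call in f/f was lost in 4 of the other settings, the libraries of the comparison alone giving the highest limma adjusted p among them (0.0745), and with any of 7 of the 8 libraries left out. The call in LKO was lost with the libraries of the comparison alone (limma adjusted p = 0.0568) and without either HFD-fed LKO-labelled replicate (0.0662 and 0.0844). The difference of these rises was 0.18, with a 95% interval from -0.10 to 0.45, and did not pass the test.

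*Bdh1* (ENSMUSG00000046598; chromosome 16, 31422280 to 31458901, plus strand, 7 exons), which makes beta-hydroxybutyrate, stood at 107 and 95.9 FPKM in the CD-fed f/f libraries and at 133 and 128 in the HFD-fed f/f libraries. In the LKO-labelled libraries it stood at 114 and 116 on the CD and at 136 and 149 on the HFD. Here too the diets did not overlap. Averaged over the genotypes, *Bdh1* rose 1.31-fold on the HFD (log2 fold change 0.39 ± 0.050 SE, 95% interval 0.27 to 0.51, limma adjusted p = 0.0086). The log2 fold change was 0.40 in f/f (limma adjusted p = 0.056, past the threshold only without genes below 1 FPKM or at 0 in a library) and 0.39 in LKO (limma adjusted p = 0.042). The interaction was -0.01. The call in LKO was lost without normalization (limma adjusted p = 0.0999), with median centring (limma adjusted p = 0.0804) and with any 1 library left out (limma adjusted p 0.0616 to 0.176). An antisense gene, *Gm15743*, overlaps *Bdh1*, and the library kit does not mark strand. Reads from bases that the 2 genes share thus cannot be told apart.

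Among the 5 genes, 2 passed the test between the diets averaged over the genotypes and both were higher, against 9.89% of all genes tested that were called and 5.04% that were called higher. In the f/f-labelled libraries 1 of 5 was called, against 1.33% of all genes called and 0.627% called higher, and in the LKO-labelled libraries 2 of 5, against 3.02% called and 1.57% called higher. The diets did not overlap for 2 of the 5 genes, both higher, where 16.5% of all genes did not overlap and 6.21% were higher without overlap. The 5 genes were chosen with earlier results of these data known, so that these counts beside the shares are a description only. Marker lists also moved with the diet. Of the 8 hepatocyte markers, 4 were higher and 4 lower on the HFD averaged over the genotypes, with 1 called each way. These counts include *Alb* and *Serpina3k*, which were listed at 0 in 4 and 7 libraries. An exact 0 can be a failed estimate, so that the values of both are uncertain. Among the 8 markers, *Tat* stood at 480 to 1036 FPKM in the CD libraries and at 250 to 322 FPKM in the HFD libraries. Averaged over the genotypes, all 7 endothelial markers were higher on the HFD (median log2 fold change 0.20, 1 called), 5 of 8 stellate cell markers were higher (2 called), and all 5 red cell markers tested were lower (median -0.87, 1 called), with sums of 37.8 to 57.6, 39.9 to 95.6 and 65.8 to 502 FPKM over the 8 libraries. Their part in the diet values was not tested. The plot of log2 fold changes sets the diet and genotype comparisons side by side.

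**Figure D2:**
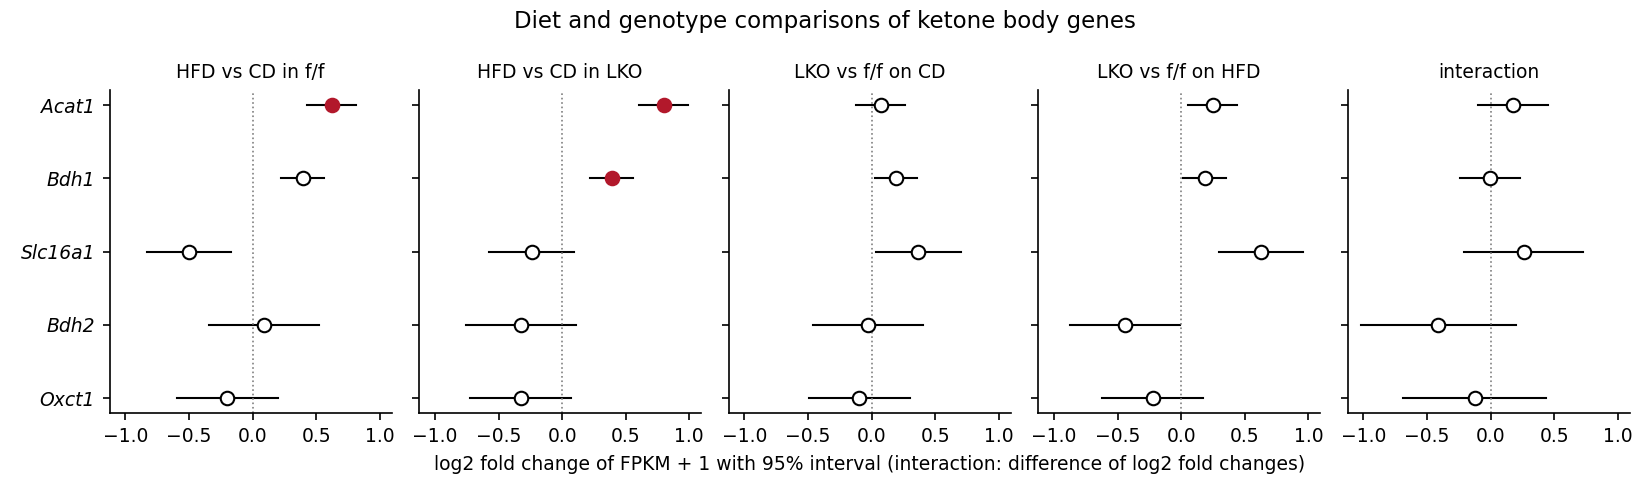
Log2 fold change of FPKM + 1 (point) with its 95% interval (line) for each gene in the diet comparison under each genotype label, the genotype comparison on each diet, and their interaction. Filled points passed limma's adjusted p of 0.05, which is met by *Acat1* under both labels and by *Bdh1* in LKO, all for diet.

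*Slc16a1* (ENSMUSG00000032902; chromosome 3, 104638668 to 104658462, plus strand, 5 exons), the transporter, had another pattern. It stood at 8.89 and 12.1 FPKM in the CD-fed f/f libraries and at 13.5 in each of the CD-fed LKO-labelled libraries. On the HFD it stood at 6.43 and 7.37 in the f/f libraries and at 11.4 and 10.5 in the LKO-labelled libraries. The LKO-labelled libraries were above the f/f libraries on each diet, and the HFD-fed f/f libraries were the lowest of all 8. None of these differences passed the adjusted test. Between the genotype labels the log2 fold change was 0.63 ± 0.14 SE on the HFD (95% interval 0.30 to 0.96, unadjusted p = 0.003, limma adjusted p = 0.25) and 0.37 on the CD (limma adjusted p = 0.36). Averaged over the diets it was 0.50 (limma adjusted p = 0.13). Between the diets it was -0.37 averaged over the genotypes (limma adjusted p = 0.063), -0.50 in f/f and -0.24 in LKO. The diet value crossed the threshold in 3 settings besides the one used, among them the fit without normalization (limma adjusted p = 0.0494), and without CD-fed f/f replicate 1 (limma adjusted p = 0.0343). The interaction was 0.26 with a 95% interval from -0.21 to 0.73. Several of these values turned on the CD-fed f/f libraries. Without replicate 1 of that group the genotype value on the CD was 0.17 and the interaction 0.46, and without replicate 2 they were 0.57 and 0.06. The diet value in f/f was -0.30 without replicate 2. The interaction was 0.17 without HFD-fed f/f replicate 1. The genes *Gm43581* and *Gm43585* overlap *Slc16a1* on its own strand and are annotated as sense intronic.

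*Bdh2* (ENSMUSG00000028167; chromosome 3, 135281221 to 135304426, plus strand, 10 exons) stood at 9.73 and 8.28 FPKM in the CD-fed f/f libraries and at 8.06 and 9.47 in the CD-fed LKO-labelled libraries. On the HFD it stood at 7.97 and 11.2 in the f/f libraries and at 5.83 and 7.49 in the LKO-labelled libraries. The HFD-fed LKO-labelled libraries held the lowest values, and the other 6 overlapped across groups. The log2 fold change between the genotype labels on the HFD was -0.44 ± 0.18 SE (unadjusted p = 0.045, limma adjusted p = 0.50), and on the CD it was -0.03. The value on the HFD was -0.68 without HFD-fed f/f replicate 1, -0.21 without HFD-fed f/f replicate 2 and -0.29 without HFD-fed LKO-labelled replicate 1. Between the diets it was -0.11 averaged over the genotypes (limma adjusted p = 0.61).

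*Oxct1* (ENSMUSG00000022186; chromosome 15, 4026383 to 4155344, plus strand, 17 exons), the enzyme of ketone body use, stood at 0.851 and 1.49 FPKM in the CD-fed f/f libraries and at 1.01 and 1.06 in the CD-fed LKO-labelled libraries. On the HFD it stood at 0.895 and 0.852 in the f/f libraries and at 0.600 and 0.626 in the LKO-labelled libraries. It passed the filter only through 3 CD libraries. The HFD-fed LKO-labelled libraries were the lowest, and CD-fed f/f replicate 2 the highest. No comparison passed the test, and the diet value averaged over the genotypes was -0.26 (limma adjusted p = 0.21). The log2(FPKM + 1) scale understates changes at so low a level, and in the other settings, a pseudocount of 0.1 among them, no comparison of *Oxct1* passed either. The summed Kupffer cell and macrophage markers were 82.8 and 108 FPKM in the CD-fed f/f libraries, 83.5 and 79.9 in the CD-fed LKO-labelled libraries, 77.1 and 63.9 in the HFD-fed f/f libraries, and 111 and 79.6 in the HFD-fed LKO-labelled libraries. On the HFD this sum was thus higher, and *Oxct1* lower, in both LKO-labelled libraries. The part of these cells in the *Oxct1* value was not tested. The genes *BC037032* and *Gm15632* lie on the other strand of *Oxct1*.

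Between the genotype labels no gene of the 5 passed the adjusted test on either diet, where 0.043% of all genes were called on the HFD and 0.0172% on the CD, or averaged over the diets, where 0.103% were called. At an unadjusted p under 0.05, 4 of 5 genes differed on the HFD (*Acat1*, *Bdh1* and *Slc16a1* higher and *Bdh2* lower in LKO), against 9.58% of all genes, 5.46% higher and 4.12% lower. On the CD 2 of 5 did so (*Bdh1* and *Slc16a1*), against 12.3% of all genes, 6.15% higher. For the genotype by diet interaction, 0 of 5 passed with limma either adjusted or at an unadjusted p under 0.05, against 0.0344% and 8.35% of all genes. Groups did not overlap between the labels on the HFD for all 5 genes, 3 higher and 2 lower in LKO, and 42.1% of all genes did not overlap there, 19.1% higher and 23% lower. On the CD 2 of 5 did not overlap, both higher in LKO, against 43.3% of all genes and 20.8% higher. As between the diets, these counts are a description only. Values of some marker lists also differed between the labels. The 8 Kupffer cell and macrophage markers were all higher in LKO on the HFD (median log2 fold change 0.39, 0 past the adjusted test, 4 without overlap), while on the CD 7 of 8 were lower (median -0.25, 0 past the adjusted test, 3 without overlap). The 5 red cell markers tested were all higher in LKO on the CD (median 1.11, 1 without overlap) and on the HFD (median 0.40, 0 without overlap). None passed the adjusted test, and replicates lay far apart, with *Hba-a1* at 15.3 and 119 FPKM in the CD-fed f/f libraries. The adipocyte list summed to 2.23 to 4.04 FPKM in the f/f libraries and to 8.52 to 13.7 FPKM in the LKO-labelled libraries, through *Cfd* and *Cidec*, the 2 of its 6 genes that were tested. The defining fat cell genes *Adipoq*, *Plin1* and *Lep* stayed at or below 0.377 FPKM and were listed at 0 in 5, 5 and 7 of 8 libraries. Their part in the values of the ketone body genes was not tested.

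Mitochondrial beta-oxidation, which supplies the acetyl-CoA, was read from a list of 17 genes, all tested. The list was chosen with earlier results of these data known, so that its counts beside the shares of all genes are a description only. Averaged over the genotypes, 16 of 17 had values above 0, with a median log2 fold change of 0.23. The test called 8 of 17 higher on the HFD and 0 lower, against 5.04% of all genes that were called higher. The genes called were *Acadm*, *Etfdh*, *Acadl*, *Etfa*, *Hadh*, *Hadhb*, *Hadha* and *Decr1*. *Cpt1a* went the other way, with 140 to 145 FPKM in the HFD libraries and 147 to 190 FPKM in the CD libraries. The largest rise was that of *Acadm*, the medium-chain acyl-CoA dehydrogenase, by 0.64 on the log2 scale (limma adjusted p = 0.0081). In the LKO-labelled mice 16 of 17 had values above 0 and 5 of 17 were called higher, against 1.57% of all genes. These calls were not kept when any 1 of the 4 LKO-labelled libraries was left out. In the f/f-labelled mice 15 of 17 had values above 0 (median 0.17) and 0 were called. At an unadjusted limma p under 0.05, 9 of 17 were higher in f/f and 0 lower, against 19.2% of all genes in either direction. For the genotype by diet interaction, 0 of 17 passed the adjusted test. At an unadjusted limma p under 0.05, 3 of 17 had an interaction above 0 and 1 below, against 8.35% of all genes in either direction. Within f/f the values were highest for *Acadm* (0.55) and *Acadl* (0.36) and lowest for *Cpt1a* (-0.13) and *Cpt2* (-0.04). Across settings the count averaged over the genotypes was between 5 and 10, and 5 of 17 were called without normalization. Between the genotype labels 0 of 17 passed on either diet, although 16 of 17 had values above 0 on the HFD, 7 of 17 at an unadjusted p under 0.05, where 5.46% of all genes were higher at that p, with a median of 0.19. On the HFD the highest values were those of *Acadm* (0.32) and *Hadh* (0.31), and the lowest those of *Etfb* (-0.07) and *Echs1* (0.02). On the CD the highest were those of *Acads* (0.30) and *Acadm* (0.15), and the lowest those of *Etfb* (-0.04) and *Etfa* (-0.03).

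Of the 8 genes of monocarboxylate transport, 4 were tested. *Slc16a7*, which encodes the related transporter MCT2, stood at 23.3 and 21.7 FPKM in the CD-fed f/f libraries, 23.0 and 20.9 in the CD-fed LKO-labelled libraries, 26.0 and 34.6 in the HFD-fed f/f libraries, and 37.5 and 38.2 in the HFD-fed LKO-labelled libraries. It rose on the HFD in the LKO-labelled mice (log2 fold change 0.78 ± 0.13 SE, limma adjusted p = 0.035) and averaged over the genotypes (0.60, limma adjusted p = 0.014), with a value of 0.42 in f/f (limma adjusted p = 0.16). The averaged call was lost with any of 4 libraries left out, the highest limma adjusted p being 0.0622 without CD-fed f/f replicate 2, and the call in LKO with any of 6 libraries left out (limma adjusted p up to 0.17). *Slc16a7* and *Slc16a1* thus lay on opposite sides of 0 between the diets. *Bsg*, the chaperone of MCT1, stood at 142 to 167 FPKM and *Slc16a6* at 1.48 to 3.20 FPKM, with no call. *Slc16a3*, *Emb*, *Slc5a8* and *Slc5a12* stayed below 0.404 FPKM in every library, as did the ketone body receptor *Hcar2*, and *Ffar3* was listed at 0 in all 8.

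The other genes of ketone body use gave no call. *Aacs*, which activates acetoacetate in the cytosol for lipid synthesis, ranged from 5.92 to 18.2 FPKM, and these extremes were the 2 HFD-fed f/f libraries. *Oxct2a* and *Oxct2b* stayed below 0.0383 FPKM. Among the genes of the cytosolic thiolase and of entry into the mevalonate pathway, *Acat2* fell by 0.51 on the log2 scale on the HFD averaged over the genotypes (limma adjusted p = 0.019), a call lost with any of 4 libraries left out (up to 0.0719), and *Acat3* rose by 0.21 (limma adjusted p = 0.041), a call that was lost without normalization (limma adjusted p = 0.115). *Acat2* and *Acat3* are near-identical copies whose reads may have been split between them, and both values are uncertain. *Hmgcs1*, the cytosolic HMG-CoA synthase, ranged from 33.3 to 97.4 FPKM and passed in no comparison.

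Of 13 genes that control ketogenesis, 0 passed the adjusted limma test in any comparison. At an unadjusted p under 0.05 there was 1 of 13 between the labels on the HFD, 3 of 13 on the CD and 2 of 13 averaged, against 9.58%, 12.3% and 13.5% of all genes. Between the diets there were 7 of 13 in f/f, 1 of 13 in LKO and 4 of 13 averaged, against 19.2%, 21.3% and 27.9%, and 3 of 13 for the interaction, against 8.35%. Between the genotype labels *Fgf21*, a fasting hormone of the liver, had the highest values, 1.05 on the CD and 0.73 on the HFD (limma adjusted p = 0.20 and 0.38). It stood at 1.50 and 1.32 FPKM in the CD-fed f/f libraries, 4.70 and 3.60 in the CD-fed LKO-labelled libraries, 2.54 and 1.59 in the HFD-fed f/f libraries, and 5.14 and 3.05 in the HFD-fed LKO-labelled libraries. The labels did not overlap on either diet. *Foxa2* followed on the CD (0.43) and *Mtor* on the HFD (0.19), and the lowest were *Ppargc1a* (-0.55) and *Insr* (-0.12) on the CD and *Crtc2* (-0.27) and *Foxa2* (-0.26) on the HFD. Between the diets in f/f, the highest were *Foxa2* (1.11) and *Crtc2* (0.53) and the lowest *Ppargc1a* (-0.35) and *Mtor* (-0.27). The *Foxa2* libraries lay far apart on the HFD, at 10.8 and 19.9 FPKM in f/f, against 6.96 and 5.77 on the CD.

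**Figure D3:**
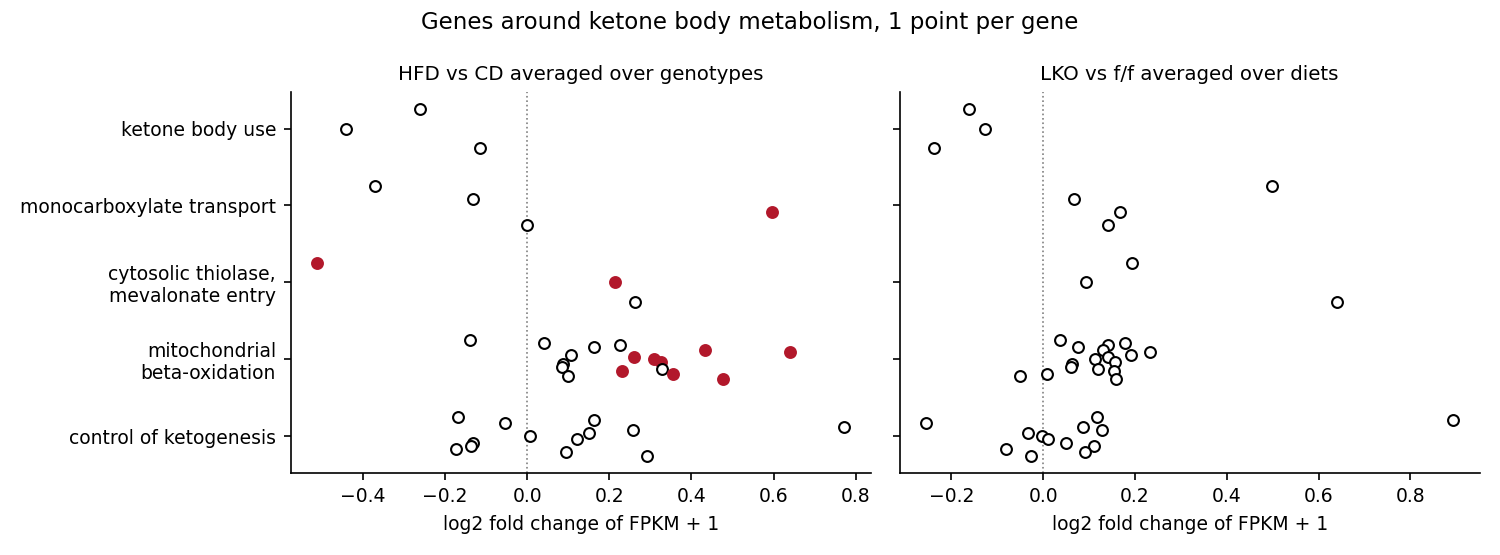
Log2 fold change of FPKM + 1 for tested genes of 5 lists around ketone body metabolism, averaged over genotypes for diet (left) and over diets for genotype label (right). Filled points passed limma's adjusted p of 0.05. On the left they comprise 8 of 17 beta-oxidation genes, *Slc16a7*, *Acat2* and *Acat3*, and on the right there are none.

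Finally, the genes whose normalized log2 values over the 8 libraries most resembled each member were listed, as a description. All points share the 4 groups and the same normalization. *Acat1* was closest to *Acadl*, the long-chain acyl-CoA dehydrogenase (Pearson's r = 0.995, Spearman's rho = 1), then to *Pigr* (r = 0.993) and *Cyp4a14*, a fatty acid omega-hydroxylase (r = 0.993). *Bdh1* was closest to *Scarb1*, the HDL receptor (r = 0.990), *Reep6* (r = 0.988) and *Tymp* (r = 0.979). *Slc16a1* was closest to *Abhd5*, the activator of the lipase ATGL (r = 0.974), *Cyb5r3* (r = 0.969) and *Zfp704* (r = 0.963). For *Bdh2* they were *Mrpl55*, *Gmnn* and *Cpn2* (r = 0.954, 0.953 and 0.951). For *Oxct1* they were *Tmed7*, *Rpl15* and *Trim39* (r = 0.978, 0.978 and 0.959). Between the members, *Acat1* and *Bdh1* had an r of 0.953, and *Bdh1* and *Oxct1* an r of -0.866.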

How the data were processed

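Total RNA of liver was prepared with the TruSeq RNA kit v2, which does not mark strand. Per the labels and the methods, the authors trimmed reads with cutadapt 1.0, aligned them to GRCm38 with TopHat2 2.0.7 and estimated expression with Cufflinks, whose version is not given in the sources used here. The deposited values are FPKM for 38283 genes in 8 libraries, on a linear scale. With no read counts among the values, the depth behind each is unknown and no counting interval is given. An exact 0 can be a failed estimate.

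The filter, FPKM above 1 in any library, the added pseudocount of 1, the log2 scale and quantile normalization follow the methods. The permutation procedure of the methods was not used. Instead limma 3.58.1 in R 4.3.3 was fitted to all 11634 genes with 4 group means and a mean-variance trend (4 residual and 2.8 prior degrees of freedom), and p-values were adjusted by Benjamini-Hochberg within each of 7 comparisons. Fold changes are on the log2(FPKM + 1) scale. Gene symbols, coordinates and exons of the longest coding transcript come from GENCODE M21 by Ensembl identifier, and 36341 genes had a symbol. In simulated data the fit recovered 96.5% of the genes given a log2 change of 2 and 81% of those given 1 for the genotype comparison on the HFD. Only genes with a mean log2 value above 1 were given a change, with independent normal noise. The 5 ketone body genes had values from -0.44 to 0.63 in that comparison. Changes of that size were not simulated, so that the recovery at that size is not known.

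The members and gene lists were chosen with earlier results of these data known. Named were the members, *Rora*, the genes of the short pathway lists (some genes of these lists are not reported here), the 2 highest and 2 lowest genes of the beta-oxidation and control lists in 3 comparisons, and the 3 genes most correlated with each member. Called genes of the beta-oxidation list, the 8 hepatocyte markers, *Cfd* and *Cidec* were named after their values were seen. The labels state separate samples, each of 2 pooled livers, and p-values measure the spread between them. Alternatives were no normalization, median centring, 0.1 as pseudocount, a filter of FPKM above 1 in each library or above 0 in any, a replicate block, no trend, the libraries of the comparison alone, each library left out and, added after the data were seen, no genes listed at 0.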

Additional observations from a re-analysis of the deposited data

Results flagged for a closer look

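In 3 genes picked by this rule from the lists around ketone body metabolism, the diets did not overlap under either label and moved in opposite ways. With 2 libraries in a group such separation is common. Between the labels, which is another comparison, 42.1% of all genes did not overlap on the HFD and 43.3% on the CD. The share without overlap between the diets under each label is not given here. The share of all genes that moved in opposite ways was not counted, so that the 3 genes are a description only. The interaction was fitted with limma and passed for none after adjustment. *Hmgcs1*, the cytosolic HMG-CoA synthase, was lower on the HFD in f/f (45.1 and 36.3 FPKM on the CD, 36.1 and 33.3 on the HFD) and higher in LKO (44.9 and 46.3 on the CD, 97.4 and 53.7 on the HFD), a difference of log2 fold changes of 0.91 (limma adjusted p = 0.594). *Ppargc1a*, a coactivator of fasting metabolism, was lower on the HFD in f/f (3.09 and 3.91 against 2.58 and 2.37 FPKM) and higher in LKO (1.96 and 2.17 against 2.61 and 2.53 FPKM), a difference of 0.59 (limma adjusted p = 0.558). *Gcgr*, the glucagon receptor, was higher on the HFD in f/f (131 and 119 against 138 and 143 FPKM) and lower in LKO (140 and 150 against 130 and 136 FPKM), a difference of -0.25 (limma adjusted p = 0.576).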

How the results depend on the processing

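The count of ketone body genes called between the diets in f/f was 1 and became 2 with FPKM above 1 in all 8 libraries or without genes listed at 0, and 0 with FPKM above 0, with the replicate block, without the trend or with the libraries of the comparison alone. Leaving out 1 library gave 0 to 1, and *Acat1* kept its call in f/f only without CD-fed LKO-labelled replicate 1. In LKO the count was 2 and became 1 without normalization, with median centring, with FPKM above 0, with the replicate block or without the trend, 0 with the libraries of the comparison alone, and 0 to 1 with 1 library left out, 0 without either HFD-fed LKO-labelled replicate. Averaged over the genotypes, *Acat1* and *Bdh1* were called in every setting run. Over all genes, the count in f/f was 155 and ranged from 28 with the libraries of the comparison alone to 323 with FPKM above 1 in all 8 libraries, that in LKO was 351 and ranged from 23 to 570 in the same settings, and the count between the labels on the HFD was 5 and became 24 with FPKM above 0. Changes of sign came only when 1 library was left out, in values that passed no test: *Bdh2* (-0.14 to 0.08), *Acat1* (-0.01 to 0.16) and *Oxct1* (-0.31 to 0.11) between the labels on the CD, the interaction of *Bdh1* (-0.08 to 0.06) and *Oxct1* (-0.33 to 0.08), *Bdh2* (-0.14 to 0.32) and *Oxct1* (-0.41 to 0.01) between the diets in f/f, and *Bdh2* between the diets averaged over the genotypes (-0.23 to 0.0016). The cause of these changes was not tested. Same-numbered libraries deviated together little (Pearson's r -0.061 to 0.035 between groups without genes listed at 0, and -0.0037 to 0.149 over all genes tested). Such a correlation over genes cannot exclude that the replicate numbers pair the libraries. Under the replicate block 34 genes were called in f/f and 223 in LKO.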
